A study of Mus musculus with 24 samples.

Results

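The genes described here are 9 genes of the oligodendrocyte lineage, measured in the brains of mice with an extra copy of part of chromosome 16 and of mice without it. They were chosen by gene name out of 13674 genes that the array annotation names, and the rule uses no measured value, although earlier results of these data were known when they were chosen. Of the 9 genes, 6 belong to myelin or its synthesis (Mbp, Mag, Mog, Mobp, Cnp and Ugt8a) and 3 mark the precursor stage of the lineage (Pdgfra, Cspg4 and Sox10). Probe sets annotated to one of these symbols were kept apart, 16 on the design MGU74A (array A below) and 5 on MGU74B (array B), 21 in all. No probe set named a member together with another gene.

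Total RNA from brain was hybridised to 24 arrays, with 6 samples of genotype 2N and 6 of genotype Ts1Cje on each of the 2 designs. 2N mice have the normal chromosome complement. Ts1Cje mice, a model of Down syndrome, carry an extra, translocated copy of distal chromosome 16 that begins beside a disrupted Sod1. The labels give no strain, age, sex or brain region and do not say whether each sample was a different animal, so the tests reflect only how much these samples vary, and part of that may be technical. None of the 9 genes lies on chromosome 16 in the reference annotation (GRCm38.p6). Olig1 and Olig2, which encode transcription factors that specify the lineage, lie distal to Sod1, on the trisomic segment.

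Oligodendrocytes wrap axons of the central nervous system in myelin, a lipid-rich membrane held compact by a small set of proteins. They arise from precursor cells that carry the growth factor receptor encoded by Pdgfra and the surface proteoglycan NG2 encoded by Cspg4. Sox10, a transcription factor, is present from the precursor stage onward and switches on myelin genes as the cells differentiate, so it is less specific to precursors than Pdgfra and Cspg4. In the mouse brain most myelin genes come on after birth, while precursors are already present before it.

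Because Sox10 binds DNA through a SOX core motif, the 250 bases before the start of member genes are described first. RefSeq windows (GRCm38.p6) were used for 7 of the 9 genes, with 3 starts for Mag. The motif searched was ACAAAG on either strand, which reads CTTTGT on the other, and it was chosen after the sequences had been read. Of 32841 such windows over all genes, 16.5% held at least 1 match. The window of Mobp held 6 matches, which was the highest number in any window and was reached in 1 window, its own. Its G and C content was 40.8%, against a median of 52.4% over all windows. Cnp and the first 2 starts of Mag held 1 match each, and Mog, Ugt8a, Pdgfra, Cspg4 and the other Mag start held 0. Mobp, with the most matches, is printed with Cnp, a myelin gene with 1 match, and Pdgfra, a precursor gene with 0. Each runs 5′ to 3′ on the strand of the gene, and capitals mark the matches.
Mobp, chr9:120149492-120149741, plus strand: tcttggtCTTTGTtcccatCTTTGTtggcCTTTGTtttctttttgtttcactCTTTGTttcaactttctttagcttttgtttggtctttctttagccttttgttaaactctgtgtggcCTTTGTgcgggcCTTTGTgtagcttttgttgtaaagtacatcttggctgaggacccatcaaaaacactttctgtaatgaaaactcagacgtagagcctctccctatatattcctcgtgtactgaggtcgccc
Cnp, chr11:100574689-100574938, plus strand: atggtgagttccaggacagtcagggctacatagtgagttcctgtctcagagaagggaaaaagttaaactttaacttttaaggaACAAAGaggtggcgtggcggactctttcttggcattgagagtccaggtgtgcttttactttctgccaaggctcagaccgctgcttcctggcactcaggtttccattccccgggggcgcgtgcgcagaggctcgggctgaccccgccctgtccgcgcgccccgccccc
Pdgfra, chr5:75152001-75152250, plus strand: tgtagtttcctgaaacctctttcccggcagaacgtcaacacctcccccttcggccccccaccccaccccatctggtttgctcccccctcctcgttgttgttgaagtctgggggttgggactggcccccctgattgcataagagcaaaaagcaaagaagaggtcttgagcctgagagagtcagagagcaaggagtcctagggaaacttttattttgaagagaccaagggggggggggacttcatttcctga
A match is a run of letters and not a known binding site, and a window with no match says only that these letters are not in it.

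Intensities below are quantile normalised within an array design and linear unless a log2 scale is named. The signal of a probe set depends on its probes, so levels were compared between genotypes for 1 probe set at a time and not between genes. In bulk brain RNA, fewer cells of a type and less RNA per cell cannot be told apart. As a guide to background, chosen after the values were seen, deposited intensities were set against 15 control probe sets for bacterial genes on each array. The sources used here do not say whether transcripts for these controls were added. Control intensities spanned 0.2 to 11.8 (array A) and 0.1 to 8.5 (array B). Of all probe sets, 50.1% (array A) and 44.1% (array B) lay above the highest control on all 12 arrays. Among the members, 3 of 14 myelin probe sets and 3 of 7 precursor probe sets did so. At the other end, 6 myelin probe sets and 0 precursor probe sets exceeded that control on no array, as did 11.4% (array A) and 8.57% (array B) of all probe sets. The 6 are those of Mog, Cnp and Ugt8a and 3 of the 4 Mobp probe sets on array A.

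**Figure D1:**
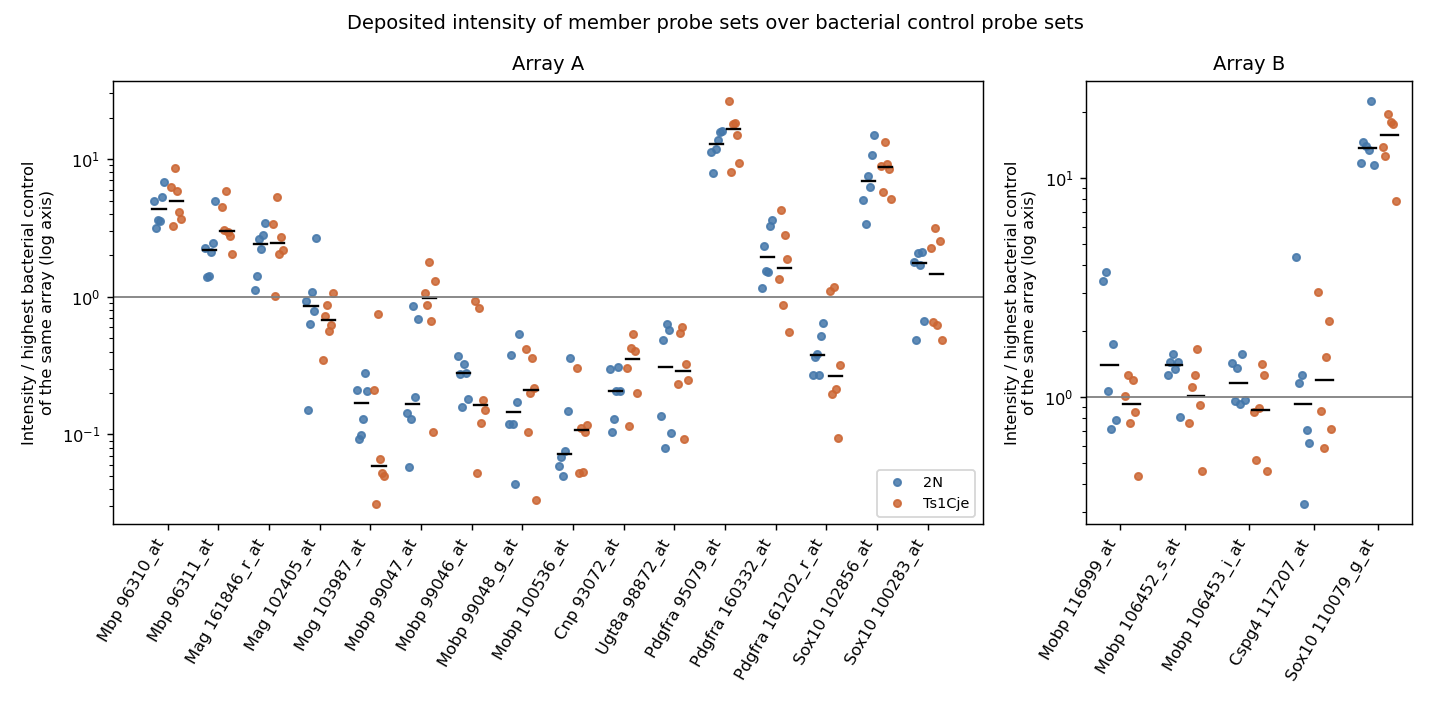
Deposited intensity of each member probe set divided by the highest of 15 bacterial control probe sets on the same array (log axis), with 1 point per sample in 2N and Ts1Cje and a bar at each median. The line at 1 marks the control: Mog, Cnp, Ugt8a and 3 Mobp probe sets of array A lie under it in every sample, whereas both Mbp probe sets, 1 of Mag, 1 of Pdgfra and 2 of Sox10 lie above it in every sample.

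Only probe sets with a mean intensity of at least 5.11 on array A or 3.90 on array B, the 25th percentiles, were tested. This left 13 of the 21 probe sets, 7 of 14 for myelin and 6 of 7 for precursor genes, which represent 6 of the 9 genes. Mog, Cnp and Ugt8a had no tested probe set. Of the member probe sets, 0 of 8 (array A) and 0 of 5 (array B) passed a limma adjusted p of 0.05. The background was 0.0966% of 9316 probe sets tested for array A and 0.0645% of 9308 for array B. By limma's unadjusted p at that threshold, 0 of 8 (array A) and 1 of 5 (array B) passed, against 3.63% and 4.24% of all probe sets tested. In 0 of 13 did all 6 samples of a genotype lie above all 6 of the other, as happened for 0.301% of tested probe sets (array A) and 0.247% (array B). Without the filter, 0 of 16 and 0 of 5 passed the adjusted p, against 0.0644% and 0.0161% of all probe sets. The unadjusted p then lay under 0.05 for 1 of 16 and 1 of 5 member probe sets, against 4.23% and 4.62% of all.

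**Figure D2:**
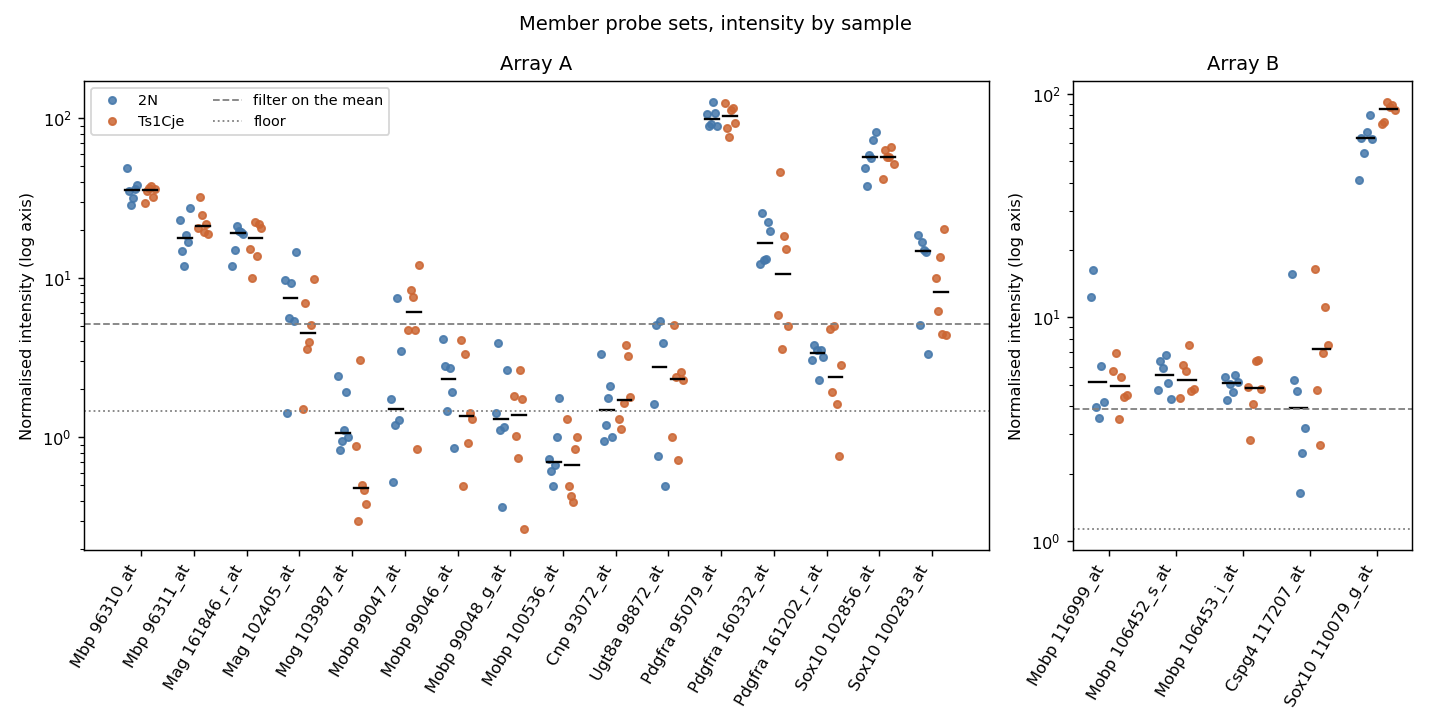
Normalised intensity (log axis) of the 21 member probe sets in each sample of 2N and Ts1Cje, with a bar at each median of 6 samples. Lines mark the filter on the mean and the floor set before log2, and the genotypes overlap in each of the 21 probe sets.

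Of the proteins of compact myelin, Mbp encodes myelin basic protein, which holds the inner faces of the membrane together. The Mbp locus also makes golli transcripts, which occur outside myelinating cells, and the annotation does not say which transcripts its probe sets read. The brighter Mbp probe set (96310_at) ranged from 28.6 through a median of 35.4 to 48.6 in 2N and from 29.3 through 35.5 to 37.4 in Ts1Cje. The genotypes overlapped, with 2N replicates 1 and 6 above every Ts1Cje sample. Means were 36.3 ± 6.92 and 34.4 ± 3.08 (SD, n = 6), a log2 difference (Ts1Cje minus 2N, as throughout) of -0.062 (95% interval -0.36 to 0.24, limma adjusted p = 0.996). The other Mbp probe set (96311_at) ranged from 11.8 through 17.7 to 27.4 in 2N and from 18.9 through 21.2 to 32.2 in Ts1Cje. All 6 Ts1Cje samples lay above the 2N median, 1 of them above every 2N sample, and 4 of 6 2N samples lay below every Ts1Cje sample. Its log2 difference of 0.32 (SE 0.22, 95% interval -0.13 to 0.78, limma adjusted p = 0.990) did not pass, and the upper end of the interval is a fold of 1.72.

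Mobp encodes a small basic protein of compact myelin and had 7 probe sets. On array A its 4 probe sets had means under the filter. In 100536_at, 5 of 6 2N and 6 of 6 Ts1Cje samples were at or under the floor of 1.47. The probe set 99047_at ranged from 0.525 through 1.5 to 7.43 in 2N and from 0.842 through 6.13 to 12 in Ts1Cje. In it 3 of 6 Ts1Cje samples lay above every 2N sample, and 3 of 6 2N samples and 1 of 6 Ts1Cje samples were at or under the floor. When the filter was dropped its log2 difference was 1.24, with an unadjusted limma p of 0.038 and an adjusted p of 0.978. The probe set 99048_g_at, which shares its source sequence, differed by -0.14 in that fit (limma adjusted p = 0.982), so the pair gave opposite signs.

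On array B all 3 Mobp probe sets passed the filter, and each exceeded the highest bacterial control on 5 to 8 of 12 arrays. In 106452_s_at the range was 4.30 to 6.78 (median 5.50) in 2N and 4.35 to 7.53 (median 5.27) in Ts1Cje. The genotypes overlapped, and the log2 difference was -0.0073 (SE 0.31, limma adjusted p = 0.999). The probe set 106453_i_at, from the same source sequence, differed by -0.077 (SE 0.34, limma adjusted p = 0.996). The third, 116999_at, ranged from 3.55 through 5.13 to 16.3 in 2N and from 3.52 through 4.95 to 6.95 in Ts1Cje. Replicates 1 and 2 were the highest samples of either genotype, at 12.4 and 16.3 in 2N and 5.75 and 6.95 in Ts1Cje. Its log2 difference of -0.38 (SE 0.41, limma adjusted p = 0.996) was 0.019 among replicates 3 to 6 and -1.19 among replicates 1 and 2.

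Because of that pattern and because earlier results set replicates 1 and 2 apart, differences were also computed within the 2 sets of replicates, a split that the labels do not give. The mean Spearman correlation between arrays over all probe sets was 0.926 within replicates 1 and 2, 0.946 within replicates 3 to 6 and 0.932 between the sets on array A. On array B these were 0.910, 0.907 and 0.904. By these means replicates 1 and 2 did not form a set of their own on array A. On array B both means within a set lay above the mean between the sets. Deposited array medians on array B were 11.4 to 13.8 in replicates 1 and 2 and 7.9 to 10.3 in replicates 3 to 6, in both genotypes. The source of that split was not tested.

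Mag encodes an adhesion protein of the myelin membrane next to the axon, and Mog a protein of the outermost myelin layer. The brighter Mag probe set (161846_r_at) ranged from 11.8 through 19.0 to 21.1 in 2N and from 9.93 through 17.8 to 22.4 in Ts1Cje. Replicates 1 and 2 were the lowest 2N samples, at 11.8 and 15.0, and Ts1Cje replicate 2 was the lowest of all. The log2 difference was -0.061 (SE 0.24, limma adjusted p = 0.998). The dimmer Mag probe set (102405_at) exceeded the highest bacterial control on 3 of 12 arrays and differed by -0.50 (95% interval -1.71 to 0.72, limma adjusted p = 0.990). That value was -0.92 without 2N replicate 2, -0.26 without 2N replicate 6 and -0.19 without Ts1Cje replicate 1. Mog (103987_at) ranged from 0.833 through 1.06 to 2.42 in 2N and from 0.300 through 0.483 to 3.05 in Ts1Cje. With 4 of 6 2N and 5 of 6 Ts1Cje samples at or under the floor, most of its values have no order, and 2.10% of probe sets on the array had a lower mean.

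Cnp encodes a phosphodiesterase of the myelin sheath, and Ugt8a the enzyme that makes galactosylceramide, the main myelin glycolipid. Cnp (93072_at) ranged from 0.950 through 1.48 to 3.31 in 2N and from 1.12 through 1.71 to 3.80 in Ts1Cje. Ugt8a (98872_at) ranged from 0.492 through 2.75 to 5.33 in 2N and from 0.717 through 2.33 to 5.08 in Ts1Cje. In both the genotypes overlapped, and neither exceeded the highest bacterial control on any array.

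Pdgfra, the receptor that receives the proliferation signal of precursors, had the brightest of its 3 probe sets (95079_at) above 85.7% of the probe sets on array A. It ranged from 89.3 through 99.4 to 126 in 2N and from 76.6 through 104 to 125 in Ts1Cje. The genotypes overlapped, with Ts1Cje replicates 2 and 3 below every 2N sample and means of 102 ± 14.4 and 102 ± 18.9 (SD, n = 6). The fitted difference was -0.010 on the log2 scale (SE 0.13, limma adjusted p = 0.998), and its 95% interval covers folds from 0.824 to 1.20. The probe set 160332_at ranged from 12.2 through 16.4 to 25.6 in 2N and from 3.55 through 10.5 to 45.9 in Ts1Cje. Ts1Cje replicate 2 was the highest sample and 3 other Ts1Cje samples lay below all 2N samples. Its log2 difference was -0.69 (95% interval -1.72 to 0.35, limma adjusted p = 0.990), which was -1.12 without Ts1Cje replicate 2 and -0.38 without Ts1Cje replicate 3. The dimmest, 161202_r_at, ranged from 2.29 to 3.81 in 2N and from 0.767 to 4.95 in Ts1Cje and was not tested.

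Cspg4 was represented by 1 probe set (117207_at), on array B. It ranged from 1.63 through 3.93 to 15.7 in 2N and from 2.69 through 7.20 to 16.4 in Ts1Cje. Replicate 1 was the highest sample of both genotypes, and 6 of 12 arrays exceeded the highest bacterial control. The log2 difference of 0.77 (SE 0.52, 95% interval -0.33 to 1.87, limma adjusted p = 0.996) did not pass. It was 1.16 among replicates 3 to 6 and -0.037 among replicates 1 and 2.

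Sox10 was read by 3 probe sets, and they did not give 1 direction. On array A the brighter (102856_at) ranged from 37.8 through 57.5 to 82.7 in 2N and from 41.7 through 57.2 to 66.1 in Ts1Cje. All Ts1Cje samples lay inside the 2N range, and they differed by -0.057 on the log2 scale (95% interval -0.42 to 0.30, limma adjusted p = 0.998). The dimmer (100283_at) ranged from 3.33 through 14.7 to 18.6 in 2N and from 4.36 through 8.09 to 20.1 in Ts1Cje, and differed by -0.30 (SE 0.49, limma adjusted p = 0.990). With 1 sample left out this ran from -0.63 (without 2N replicate 6) to -0.12 (without Ts1Cje replicate 6).

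The Sox10 probe set on array B (110079_g_at) shares its source sequence with 100283_at. It ranged from 41.0 through 63.0 to 80.1 in 2N and from 73.1 through 85.7 to 91.4 in Ts1Cje. Of the Ts1Cje samples 4 of 6 lay above all 2N samples, and 2N replicate 5, at 80.1, was the one 2N sample inside the Ts1Cje range. Means were 61.4 ± 13.1 and 83.2 ± 7.76 (SD, n = 6), a log2 difference of 0.46 (95% interval 0.19 to 0.73) and a fold of 1.38. Its unadjusted limma p of 0.0023 ranked 23 among the 9308 probe sets of the array, and the adjusted p of 0.918 did not pass. The difference was 0.42 among replicates 3 to 6 and 0.53 among replicates 1 and 2. Across the alternative settings it stayed between 0.24 and 0.54, with a lowest adjusted p of 0.335 by limma, and it never passed. The 0.24 came with 64 added before log2, which shrinks differences. Whether the 3 probe sets differ from each other was not tested.

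By class, the median log2 difference of the tested myelin probe sets was -0.061 for array A (4 tested, of Mbp and Mag). For array B it was -0.077 (3 tested, all of Mobp). The median of the precursor probe sets was -0.18 for array A (4 tested, of Pdgfra and Sox10) and 0.61 for array B (2 tested, of Cspg4 and Sox10). On array A the precursor median ran from -0.34 (without 2N replicate 2) to -0.077 (without Ts1Cje replicate 6). It was -0.35 with Sox10 left out, which leaves Pdgfra alone. Among replicates 3 to 6 the myelin medians were 0.025 and 0.039, opposite in sign to those over 6 replicates. Over all tested probe sets the medians were -0.00424 and -0.00346. The precursor median had opposite signs on the arrays, where different probe sets stand for the class. A difference above 0 was seen in 1 of 8 tested probe sets (array A) and 2 of 5 (array B). The 95% interval held 0 in 8 of 8 and 4 of 5.

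**Figure D3:**
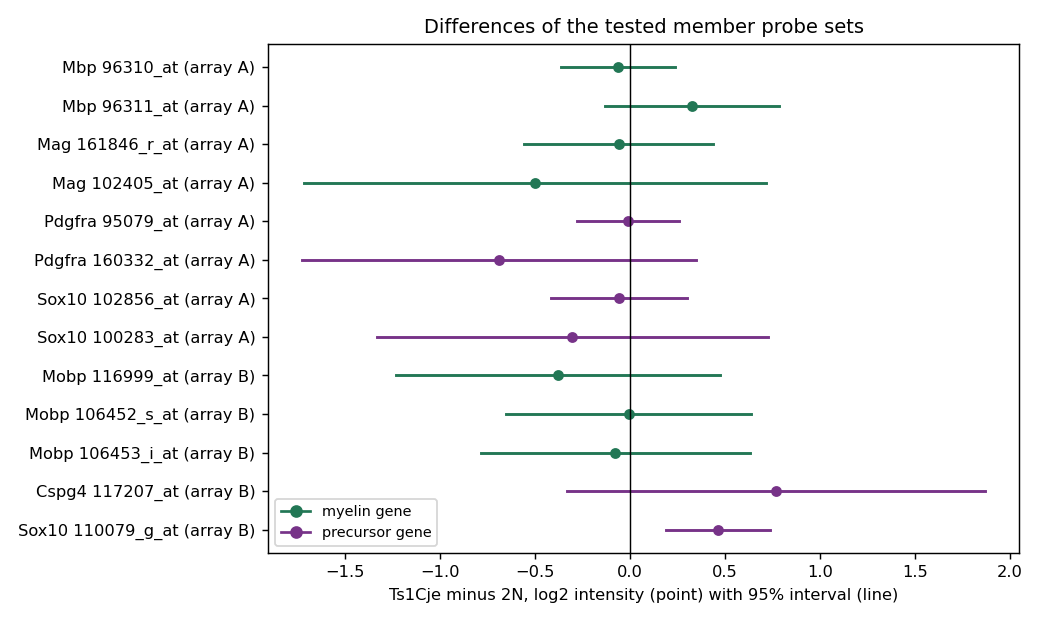
Log2 difference (Ts1Cje minus 2N) of the 13 tested member probe sets with its 95% interval from limma, by array and class. The interval of Sox10 110079_g_at on array B, 0.19 to 0.73, is the one that leaves out 0, and its adjusted p of 0.918 did not pass.

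Beyond the members, 37 of 50 other genes listed for the lineage had a probe set. On array A, 0 of 10 tested probe sets of precursor or early genes and 0 of 19 of myelinating-stage genes passed, with medians of 0.12 and 0.02. On array B, 0 of 6 and 0 of 11 passed, with medians of 0.16 and 0.01. Olig2, on the trisomic segment, differed by 0.33 in its brighter probe set (106814_at, SE 0.22, limma adjusted p = 0.996), with samples from 12.7 to 30.6 in 2N and from 16.4 to 32.9 in Ts1Cje. The other tested Olig2 probe set (163516_at) differed by 0.65 (SE 0.42, limma adjusted p = 0.996). Olig1 was not analysed here. Fyn, a kinase that acts in early myelination, averaged 262 ± 39.0 in 2N and 261 ± 27.3 in Ts1Cje (SD, n = 6). Bcan, a proteoglycan of the brain matrix, differed by 0.10 (SE 0.079). On array B the brightest were Tcf7l2, a transcription factor of differentiating oligodendrocytes, at -0.03 (SE 0.076), and Fa2h, which hydroxylates myelin lipids, at -0.03 (SE 0.15). On array A the 2 tested Tcf7l2 probe sets differed by 0.023 (102241_f_at) and -0.67 (97660_s_at, SE 0.32, limma adjusted p = 0.990). Cd82, a tetraspanin, had 1 probe set (99585_at) with an unadjusted limma p of 0.027 and a log2 difference of 0.52, while its brighter probe set differed by 0.03.

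**Figure D4:**
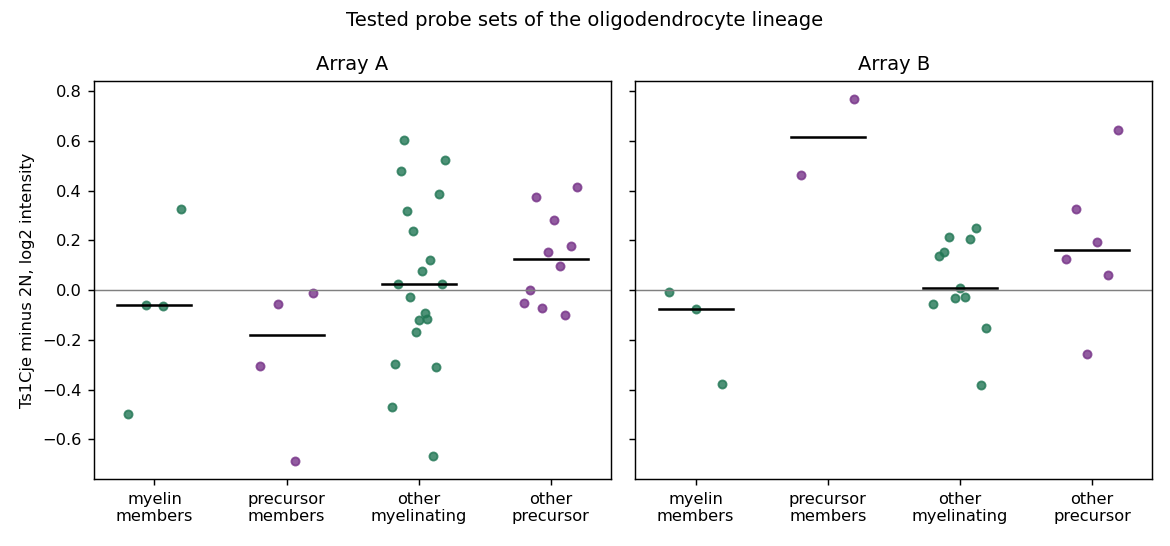
Log2 difference (Ts1Cje minus 2N) of tested probe sets, 1 point each, for the members and for other genes of the oligodendrocyte lineage, by stage and array, with bars at the medians. The medians of the other genes lie between 0.01 and 0.16, and 0 of the probe sets passed an adjusted p of 0.05.

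Some members are also expressed outside the lineage, Pdgfra in fibroblasts of the meninges, Cspg4 in pericytes and Sox10, Mbp and Mag in Schwann cells of nerves. The summed intensity of the markers of meninges and fibroblasts on array A (9 of 9 genes measured) was 2886 to 3343 in 2N and 2379 to 3077 in Ts1Cje. Most of that sum came from 3 probe sets of 1 gene, Ptgds, with 2N means of 854, 708 and 593. The sum for pericytes (8 of 8) was 123 to 155 in 2N and 111 to 162 in Ts1Cje. Schwann cell markers (3 of 7 measured) summed to 62.4 to 92.4 and 60.1 to 79.2. The ranges of the genotypes overlapped in these 3 lists, and 0 of their tested probe sets passed. The brightest markers differed by -0.06 for Ptgds and 0.04 for Igfbp2 (meninges), 0.13 for Rgs5 and -0.02 for Mcam (pericytes), and -0.04 for Dhh and -0.01 for Pmp22 (Schwann cells). Other tested probe sets of these genes gave other values, with both signs. For Ptgds they were -0.42 (102105_f_at, 95% interval -0.74 to -0.10, limma adjusted p = 0.990) and -0.12 (92545_f_at). For Dhh they were -0.75 (99861_at, 95% interval -1.55 to 0.05) and 0.22 (161588_r_at). The dimmer Rgs5 probe set on array A differed by 0.38 (95% interval -0.06 to 0.81), and the Rgs5 probe set on array B by 0.16. Acta2, a contractile protein of mural cells, differed by 1.31 (95% interval 0.18 to 2.44, limma adjusted p = 0.990). Its probe set was dim, with a range of 1.11 to 12.4 in 2N and 6.57 to 12.9 in Ts1Cje. It exceeded the highest bacterial control on 6 of 12 arrays. The summed neuron markers, led by Tubb3 and Stmn2, ran from 6826 to 7808 in 2N and from 7198 to 8157 in Ts1Cje, and were bright in every sample of the labelled tissue. Astrocyte, microglia and endothelial lists likewise had 0 probe sets past the threshold, with overlapping sums. On array B the endothelial marker Flt1 differed by -1.07 (95% interval -1.88 to -0.27, limma adjusted p = 0.996). Its range there was 5.84 to 15.8 in 2N and 2.23 to 10.7 in Ts1Cje. The Flt1 probe sets on array A differed by -0.086 and -0.58, and both intervals held 0. The part of these cell types in the members' values was not tested.

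Correlations between members across the 12 samples of array A, with genotype means removed, took both signs. They are a description, over arrays that were normalised together. Mbp (96310_at) had a Pearson correlation of -0.22 with Pdgfra (95079_at), 0.07 with Sox10 (102856_at), and 0.37 and -0.43 with the dimmer and the brighter Mag probe set. The highest value of Sox10 (102856_at) with a member was 0.67, with the dimmer Mag probe set, where Spearman's rho was 0.39. Candidates were 5654 named probe sets with a mean intensity above the median of array A. Those most like Mbp were Tcf25 (r = 0.89), Parp8 (0.78), Sncg (0.78), Bcap31 (0.78) and Igf1r (0.77). Spearman's rho for these was 0.83, 0.78, 0.64, 0.56 and 0.52 in the same order. Those most like Pdgfra were Junb (r = 0.92), Gtf2ird2 (0.85), Nsun2 (0.80), Tcf7l1 (0.80) and Cyb5r4 (0.80), with rho of 0.85, 0.78, 0.80, 0.75 and 0.82. All were picked as the highest of 5654 correlations over 12 samples, and how often chance gives such values was not tested. None of these 10 genes is a member or on the lineage list. Few of the 5654 candidates are, so this does not show whether the members vary with their lineage.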

How the data were processed

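Total RNA from brain was measured on 2 array designs, with 6 samples of each genotype per design. The deposited values were linear intensities, 1 per probe set and array. The authors' probe summary and scaling are not given in the sources used here. After 66 control probe sets were left out, each design was quantile normalised, values under the 10th percentile were set to it, and values were put on the log2 scale. Those whose mean reached the 25th percentile entered limma 3.58.1 in R 4.3.3 (lmFit, eBayes with a mean-variance trend), Ts1Cje against 2N, with Benjamini-Hochberg adjustment within a design and a threshold of 0.05. The script was tested on simulated data. The floor can shrink differences of dim probe sets, and the number of arrays limits precision.

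Genes named are all members, Olig1, Olig2, any lineage gene past the threshold, the 2 brightest others per design, the 2 brightest of each other cell type's markers where printed, and the 5 most correlated with Mbp and with Pdgfra. An item that the rule also names is not reported here. Cd82, Acta2, Flt1 and the further Tcf7l2, Ptgds, Dhh and Rgs5 probe sets were named after their values were seen. The members and lists were chosen with earlier results of these data known. Alternatives changed the normalisation, floor, filter, trend, weights, replicates and block.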

Additional observations from a re-analysis of the deposited data

How the results depend on the processing

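No member and no lineage probe set passed the threshold under any alternative run. Calls over all probe sets ran from 0 to 11 on array A (9 as reported) and from 0 to 6 on array B (6 as reported), with 0 for each when arrays were not normalised or when replicates 1 and 2 were used alone. On array B 1 was called without 2N replicate 5, without Ts1Cje replicate 1, without Ts1Cje replicate 2, or with replicates 3 to 6 alone. Without the mean-variance trend 2 (array A) and 0 (array B) were called, and without the filter 8 and 2. The precursor median on array B was 0.15 with 64 added in place of the floor, against 0.61. Adding 64 before log2 shrinks the differences of probe sets this dim, so these 2 medians are not on 1 scale. The myelin median on array B was -0.38 among replicates 1 and 2 and 0.039 among replicates 3 to 6, against -0.077, and on array A it was 0.025 among replicates 3 to 6, against -0.061.

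Some differences, none of which had passed the test, changed sign, and the cause was not tested. Among replicates 3 to 6 these were Mbp 96310_at (0.088) and Mobp 106452_s_at (0.039), 106453_i_at (0.071) and 116999_at (0.019). Among replicates 1 and 2 they were Sox10 102856_at (0.25), Pdgfra 95079_at (0.092) and Cspg4 (-0.037). Mobp 106452_s_at was 0.066 with no normalisation and 0.0097 with trimmed-mean scaling. With a sample left out, differences ran from -0.13 to 0.026 for Mbp 96310_at, -0.17 to 0.087 for Mag 161846_r_at, -0.073 to 0.068 for Pdgfra 95079_at, -0.18 to 0.046 for Sox10 102856_at, -0.10 to 0.057 for Mobp 106452_s_at and -0.17 to 0.072 for 106453_i_at. The myelin median on array A ran from -0.11 to 0.0094. With a filter at the 50th percentile no myelin probe set was left on array B.

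Same-numbered samples were not treated as pairs, since the labels do not pair them. Correlations of their deviations from the genotype means were all positive, at 0.02 to 0.08 on array A and 0.01 to 0.11 on array B. Such small values do not show that pairs are absent. The best match was the own number for 3 of 6 and 2 of 6 samples, each with 6 candidates. Whether the numbers mark pairs was not tested. With the replicate number as a block, 9 and 6 probe sets were called, 0 of them members. Sox10 110079_g_at then differed by 0.46 (limma adjusted p = 0.485), with an SE of 0.102 against 0.130. The block also lowered the SE of Pdgfra 95079_at (0.127 to 0.088) and raised that of Mbp 96310_at (0.142 to 0.156).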
